A study of Caenorhabditis elegans with 2 samples.

Results

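The SL2 spliced leader RNA genes sls-2.1, sls-2.2, sls-2.4, sls-2.7, sls-2.9, sls-2.11 and sls-2.17 of Caenorhabditis elegans are 7 of the 19 SL2 entries in an annotation of 46926 genes. None lies on III. They were selected on measured values: each has the summit of a thresholded SNPC-3.4 peak within 250 bp of its 5′ end, and its signal was read in both replicates. These peaks, signals and summit distances are therefore a description and were not tested. Peak lists from sequencing after chromatin immunoprecipitation (ChIP-seq) were analysed, made from whole young adult hermaphrodites of strain YL497 with an antibody to GFP. In this transgenic line, labelled as an insertion targeting snpc-3.4, the protein SNPC-3.4 (T02C12.2) carries GFP and FLAG at its C terminus. Biological replicates 1 and 2 formed the 1 group, and the age of the worms is labelled unknown. The promoter that drives the tagged protein is not given in the sources used here, and the control library that the notes name was not used here. A whole-worm profile sums over all tissues, so more occupancy per cell and more occupied cells cannot be told apart.

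Spliced leaders are short capped RNA ends that are joined to pre-mRNAs in trans. SL2 and its variants are the leaders used mainly for the downstream genes of operons, where trans-splicing separates one mRNA of a polycistronic transcript from the next. SNPC-3.4 belongs by homology to SNAPc, the snRNA activating protein complex, which binds a proximal sequence element upstream of snRNA and similar genes and recruits the polymerase. In each SL2 RNA the 5′ part is the leader exon, and the remainder, which holds a binding site for Sm proteins, is removed like the 5′ part of an intron.

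The 70 bases upstream of sls-2.1, sls-2.2, sls-2.11 and sls-2.17 are shown because the summits fell in this stretch. They come from the RefSeq WBcel235 genome, which is the ce11 build of the peak lists, and run 5′ to 3′ on the strand of each gene, ending at the base before the RNA. Capitals mark the 10 bases that match a shared word described further on. The positions are chrII:5844795-5844864 on the plus strand for sls-2.1, chrII:5543528-5543597 on the plus strand for sls-2.2, chrIV:9140345-9140414 on the plus strand for sls-2.11 and chrIV:5317369-5317438 on the minus strand for sls-2.17.
sls-2.1: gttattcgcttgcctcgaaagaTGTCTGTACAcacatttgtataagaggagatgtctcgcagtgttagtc
sls-2.2: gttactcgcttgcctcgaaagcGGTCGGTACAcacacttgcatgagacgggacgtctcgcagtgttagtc
sls-2.11: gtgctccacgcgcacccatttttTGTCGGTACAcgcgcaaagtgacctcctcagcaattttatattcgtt
sls-2.17: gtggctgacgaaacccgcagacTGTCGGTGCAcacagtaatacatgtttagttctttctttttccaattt
The first 2 resemble each other along their length, while the other 2 share little with them or with each other outside the capitals.

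The whole RNA of sls-2.1 (chrII:5844865-5844974, plus strand) is shown to place the leader in its gene, and capitals mark the leader exon of 22 bases.
sls-2.1: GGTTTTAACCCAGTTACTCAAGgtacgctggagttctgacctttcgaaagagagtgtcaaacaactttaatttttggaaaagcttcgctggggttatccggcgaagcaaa
This leader, the canonical SL2, was the same base for base in sls-2.1, sls-2.2 and sls-2.4, and in sls-2.3, which is not among the listed genes. The leaders of sls-2.11 (chrIV:9140415-9140436, plus strand) and sls-2.17 (chrIV:5317348-5317368, minus strand) are shown beside it, since they differ from it in sequence and that of sls-2.17 is 1 base shorter.
sls-2.11: ggtttaaaacccagttaccaag
sls-2.17: ggttttaaccagttaactaag
Of the remaining listed genes, sls-2.7 shared its leader with sls-2.6 and sls-2.5, and sls-2.11 shared its own with sls-2.10. The leaders of sls-2.9 and sls-2.17 each occurred in 1 of the 19 entries and were 21 bases long. The letters TTTTGGA, a run of T before GG as in Sm protein binding sites, began at base 71 or 72 of the RNA in all 7 listed genes and occurred in 18 of the 19 entries.

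By the selection, all 7 listed genes had a thresholded summit within 250 bp of the 5′ end, where 4.03% of all annotated genes and 42.4% of the snRNA genes outside the SL RNAs had one. All 7 also had a summit among the 2101 highest regions of replicate 1, where the share of all genes was 3.52%, and of replicate 2, where it was 4.02%. Nothing is read from these counts, since the same lists chose the genes. The signal is the authors' value for each region, on a scale that is not stated. It was used to rank regions within a list, and the depth behind it is unknown because the lists hold no read counts. Over the 7 genes the signal ran from 98.5 to 494 in the thresholded list, with a median of 169, and the lowest signal in that list was 50.8. In replicate 1 it ran from 25.7 to 192 with a median of 60.6, and in replicate 2 from 72.8 to 327 with a median of 109. Each of the 7 main regions also held the highest value of the authors' score in the thresholded list, 3.14, which 32.7% of its 2101 regions shared.

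A pair of genes with the canonical leader stood at the top. At sls-2.4 (WBGene00004836, I, 4172206 to 4172315, plus strand) the signal was 181 in replicate 1 and 327 in replicate 2, a mean of 254 ± 103 (SD, n = 2), and 494 in the thresholded list. At sls-2.1 (WBGene00004833, II, 5844865 to 5844974, plus strand) it was 192 and 299, a mean of 245 ± 75.6 (SD, n = 2), and 482 in the thresholded list. Both were among the 31 highest regions of every list, mitochondrial regions included, and sls-2.1 was the higher in replicate 1 and sls-2.4 in replicate 2. Their means differed by less than the SD, which also holds the difference of scale between the replicates. Their regions were also narrow, 142 bp at sls-2.4 and 81 bp at sls-2.1, where 97.9% of the thresholded regions were 300 bp wide. In replicate 1, however, the region at sls-2.1 had the usual width of that list, 296 bp. Narrow regions were not particular to this pair, since those of sls-2.8 and sls-2.16 on III were 139 and 138 bp wide.

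Next came a pair of genes whose leaders differ. At sls-2.9 (WBGene00004841, I, 13297877 to 13297985, plus strand) the signal was 68.0 in replicate 1 and 116 in replicate 2, a mean of 91.8 ± 33.6 (SD, n = 2), and 180 in the thresholded list. At sls-2.2 (WBGene00004834, II, 5543598 to 5543707, plus strand), which carries the canonical leader, it was 60.6 and 109, a mean of 84.9 ± 34.4 (SD, n = 2), and 169. The means of these 2 genes differed by less than the SD, but that SD also holds the difference of scale between the replicates. Within each replicate sls-2.9 was the higher. All values of both lay below every value of sls-2.1 and sls-2.4 in the same list, so an identical leader went with signals of 482 and 169 in the thresholded list.

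The remaining 3 genes were lower. At sls-2.7 (WBGene00004839, I, 9057890 to 9057999, minus strand) the signal was 48.9 in replicate 1 and 90.8 in replicate 2, a mean of 69.8 ± 29.7 (SD, n = 2), and 132 in the thresholded list. At sls-2.11 (WBGene00004843, IV, 9140415 to 9140523, plus strand) it was 25.7 and 83.3, a mean of 54.5 ± 40.7 (SD, n = 2), and 104. At sls-2.17 (WBGene00004849, IV, 5317260 to 5317368, minus strand) it was 33.5 and 72.8, a mean of 53.2 ± 27.8 (SD, n = 2), and 98.5. The last 2 changed places between replicates, and their means differed by less than the SD, which also holds the difference of scale. The top 5 genes kept their places in all 3 lists apart from the exchange of sls-2.1 and sls-2.4.

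**Figure D1:**
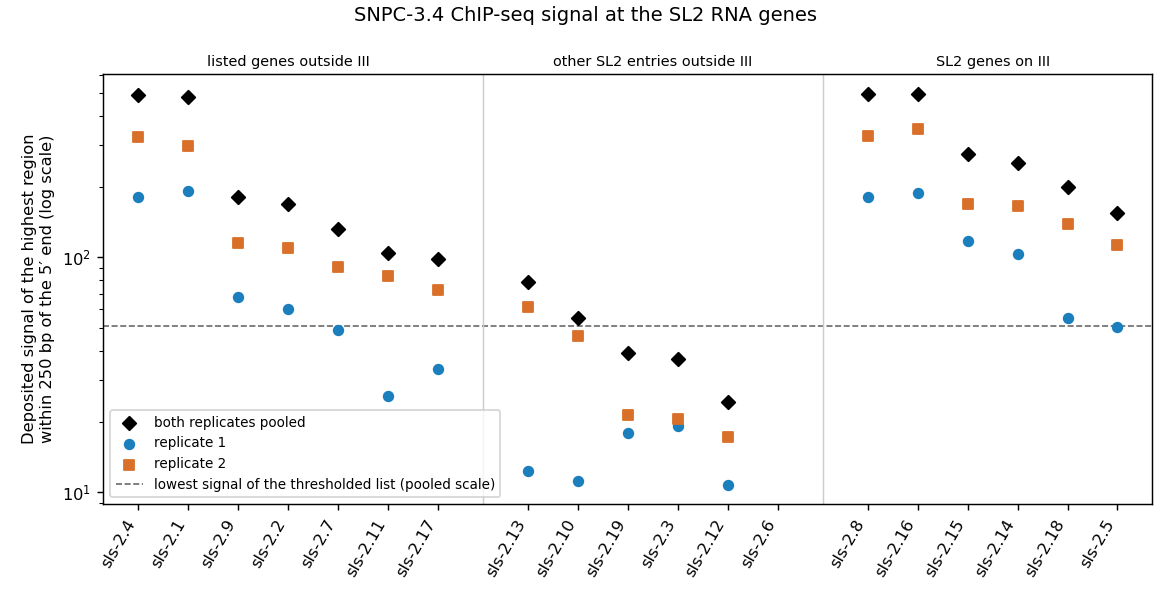
Deposited signal (log scale) of the highest region within 250 bp of the 5′ end of each of the 19 SL2 entries, in the pooled list of both replicates (diamonds), replicate 1 (circles) and replicate 2 (squares). The 7 listed genes run from 98.5 to 494 in the pooled list, sls-2.6 has no point because no region lay in its window, and the dashed line is the lowest signal of the thresholded list, 50.8.

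Replicate 2 was higher than replicate 1 at all 7 genes. The log2 ratio of replicate 2 to replicate 1 was 0.64 at sls-2.1, 0.76 at sls-2.9, 0.85 at sls-2.2 and sls-2.4 and 0.89 at sls-2.7, with 1.12 at sls-2.17 and 1.70 at sls-2.11. Their median was 0.85. Over the 1893 of 2075 nuclear thresholded regions that had a match in both replicates the median was 0.74, with quartiles of 0.34 and 1.13, so this difference of scale enters every SD given here. Only sls-2.11 lay above the upper quartile, and 32.5% of the matched regions had a ratio above 1 on the log2 scale. By place, sls-2.11 was 1434th in replicate 1 and 262nd in replicate 2, and sls-2.17 was 770th and 373rd. The other 5 listed genes held places between 25 and 325 in both replicates.

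The other 6 SL2 entries outside III show where the listed genes end. At sls-2.13 the signal was 12.3 in replicate 1 and 61.6 in replicate 2, with 78.2 in the thresholded list. At sls-2.10 it was 11.2 and 46.2, with 55.1. These 2 genes were the only others outside III with a thresholded summit, and in replicate 1 they stood at places 11303 and 14599. Their log2 ratios, 2.33 and 2.04, were above that of each listed gene. No thresholded summit lay within 250 bp of sls-2.3, which had 19.1 and 20.5 in the replicates, of the pseudogene sls-2.19, which had 17.9 and 21.3, or of sls-2.12, which had 10.8 and 17.2. For sls-2.6 no candidate region had its summit in the window in any list, and the nearest in the pooled list was at 368 bp downstream of its 5′ end, beyond the RNA, with a signal of 26.3. The listed genes were thus those outside III that lay among the 2101 highest regions of both replicates. The signal at the end of those regions was 21.8 in replicate 1 and 32.5 in replicate 2.

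**Figure D2:**
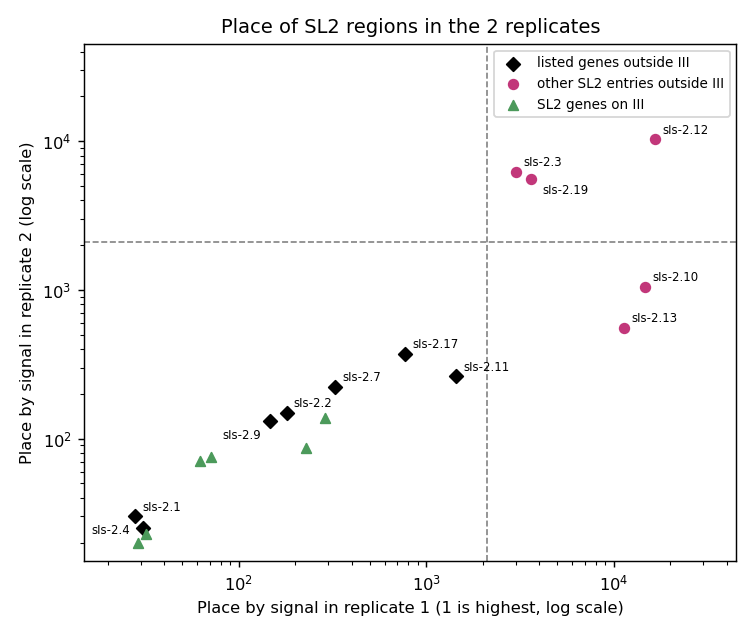
Place by signal (1 is the highest, log scales) of the SL2 regions in replicate 1 against replicate 2, with dashed lines at place 2101. The 7 listed genes (diamonds) lie inside both lines, sls-2.13 and sls-2.10 lie inside the line of replicate 2 and beyond that of replicate 1, and sls-2.6 has no point.

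The 6 SL2 genes on III all had a thresholded summit, with a median signal of 264 against 169 at the listed genes. Those 6 are every SL2 entry on III, whereas the listed genes were selected on measured values, so the medians are not a like comparison. In the thresholded list the highest was sls-2.8, with 497, and its replicates had 180 and 328. At sls-2.16, whose thresholded signal was also 497 when rounded, both replicates were higher, with 188 and 350.5. The lowest was sls-2.5, with 50.8 and 113 in the replicates and 155 in the thresholded list. The 2 ranges overlapped. In the thresholded list sls-2.4 and sls-2.1 lay just under sls-2.8, in replicate 1 both lay above it, and in replicate 2 both lay below it. In all 3 lists sls-2.7, sls-2.11 and sls-2.17 lay below sls-2.5. The median log2 ratio of the replicates was 0.88 on III and 0.85 at the listed genes.

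The main summit lay upstream of the RNA at every listed gene in all 3 lists. Positions are counted from the first base of the RNA and are negative upstream. In the thresholded list they ran from -78 at sls-2.11 to -21 bp at sls-2.17, with a median of -47 bp. The median was -34 bp in replicate 1 and -52 bp in replicate 2. At sls-2.1 the summit was at -48 bp in replicate 1 and -38 bp in replicate 2, at sls-2.2 at -30 and -53 bp, and at sls-2.4 at -34 and -44 bp. It was at -22 and -53 bp at sls-2.7 and at -46 and -52 bp at sls-2.9. The extremes were the same in both replicates, with sls-2.11 farthest at -87 and -59 bp, and sls-2.17 nearest at -20 and -30 bp. The 2 replicates of a gene differed by 6 to 31 bp, so genes whose summits were closer than that cannot be ordered. On III the thresholded summits ran from -58 to -22 bp with a median of -38 bp, which overlapped the listed genes.

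**Figure D3:**
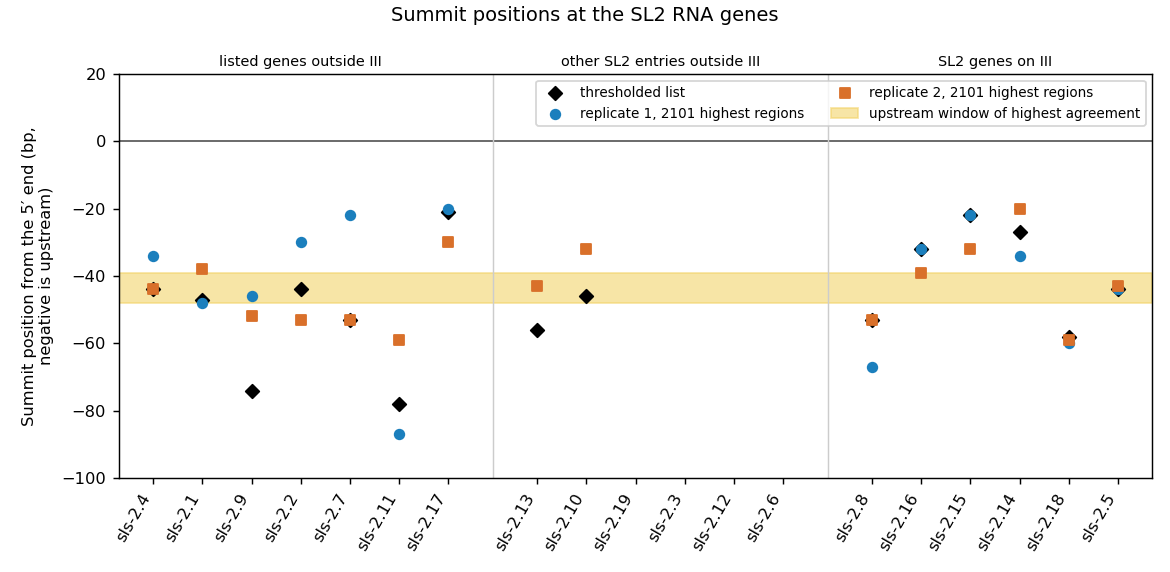
Summit position in bp from the 5′ end of each SL2 entry, negative upstream, in the thresholded list (diamonds) and among the 2101 highest regions of replicate 1 (circles) and replicate 2 (squares). All main summits of the 7 listed genes lie between -87 and -20 bp, and the shaded band covers -48 to -39 bp, the upstream window where the bases of the listed genes agree most.

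A pair of genes had a further thresholded summit beyond the 3′ end of the RNA. At sls-2.1 it lay at 153 bp with a signal of 88.6, place 680, and the candidate regions there had 18.1 in replicate 1 and 22.5 in replicate 2. At sls-2.2 it lay at 157 bp with a signal of 85.3, place 741, and the replicates had 30.0 and 47.1. Both replicates of sls-2.2 kept this region among their 2101 highest, at places 1006 and 1005, whereas at sls-2.1 the places were 3470 and 4808. At both of these second regions the pooled value was above the sum of the replicate values, and the scales of the lists are not stated. The second region of sls-2.2 (II, 5543605 to 5543904) also holds the 5′ end of the noncoding RNA C17C3.23 (5543581 to 5543698, minus strand). Beyond it lies sls-2.3, on the opposite strand to sls-2.2 at 5544164 to 5544273, whose own pooled summit, at -37 bp, had 36.8. No other listed gene had a second thresholded summit in the window.

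Several of these peaks lie close to other genes. The region at sls-2.9 (I, 13297653 to 13297952) also holds the 5′ end of a tRNA gene, WBGene00014446, on the opposite strand, 58 bp from the thresholded summit. It overlaps the noncoding RNA M01E5.8, and top-1, a topoisomerase gene, ended 245 bp away. The region at sls-2.7 (I, 9057902 to 9058201) holds the 5′ end of the divergent protein-coding gene W06D4.3, 92 bp from the summit, and spe-46, a gene of spermatogenesis, lay 228 bp away. In both regions the summit of the SL2 gene and of its neighbour cannot be told apart. At sls-2.11 the RNA and the summit both lie in an intron of daf-10, an intraflagellar transport gene, on the opposite strand, and the 5′ end of daf-10 is 5874 bp away. Annotated noncoding RNAs overlap sls-2.2 (C17C3.23) and sls-2.4 (R12E2.18) on the opposite strand, and the lists carry no strand. The RNAs of sls-2.1 and sls-2.17, like those of sls-2.7 and sls-2.9, overlap no annotated gene. The nearest neighbour of sls-2.1 is nep-25, of the neprilysin family, at 198 bp. That of sls-2.17 is the piRNA 21ur-8976 at 440 bp, with msp-65, a major sperm protein gene, at 483 bp. The remaining genes within 500 bp of a listed summit were ZK1248.17 (436 bp, near sls-2.1), R12E2.11 (276 bp, near sls-2.4), sepa-1, a gene for an autophagy adaptor of P granule proteins (401 bp, near sls-2.9), and the piRNAs 21ur-5883 (152 bp) and 21ur-8153 (376 bp) near sls-2.11.

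The bases of the 7 genes were compared without gaps from the first base of the RNA. Over the 100 bases upstream, a position had its commonest base in 3.98 of 7 genes on average. The 10-base window of highest agreement lay at -48 to -39 bp, with 5.5 of 7 genes, and the first 20 bases of the leader had 6.15 of 7, with 9 of those 20 the same in all 7. The window was chosen after this agreement had been seen. The commonest bases in it spell TGTCGGTACA, which stands in full in 3 of the 7 genes. It fills the window itself in sls-2.4 and sls-2.9, and in sls-2.11 on IV it stands 1 base closer to the RNA. Counted from 1 at the 5′ end of the word, sls-2.1 differs by G5T, sls-2.2 by T1G and sls-2.17 by A8G. The remaining gene, sls-2.7, matched at 6 of the 10 bases.

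**Figure D4:**
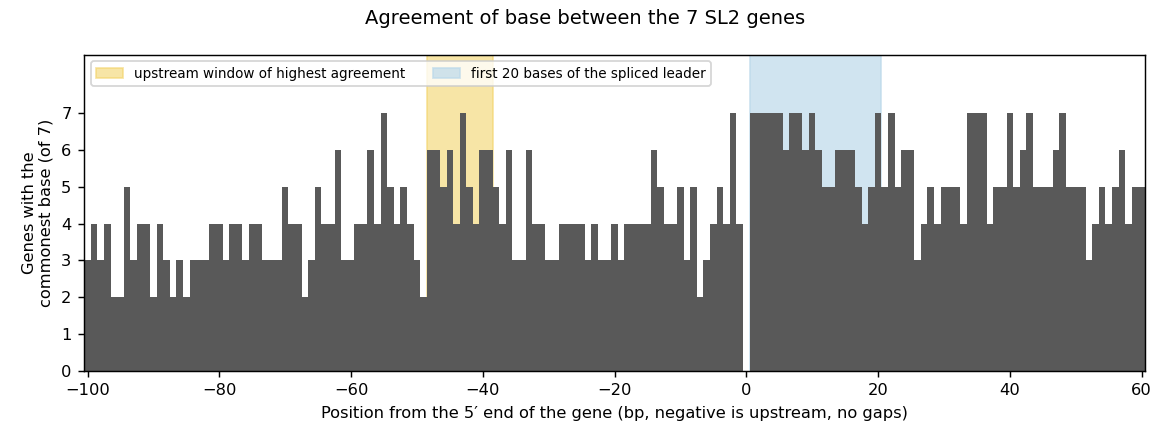
Number of the 7 listed genes that hold the commonest base at each position from 100 bp upstream to 60 bp inside the RNA, without gaps. Agreement is highest in the leader (blue band, first 20 bases) and, upstream, in the window at -48 to -39 bp (yellow band), where the mean is 5.5 of 7.

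At least 8 of the 10 letters of TGTCGGTACA, on the strand of the gene and within 5 bp of the place of that window, stood upstream of 6 of the 7 listed genes, 5 of the 6 other SL2 entries outside III and 3 of the 6 on III. The same was true of 44 of 99 snRNA genes (44.4%), 5 of 346 snoRNA genes, 4 of 612 tRNA genes and 52 of 19973 protein-coding genes. Over all 46888 nuclear genes with a full window it was 184 (0.392%), and on either strand anywhere in the 100 bases it was 1776 (3.79%). The word was drawn from the listed genes, so their count is not independent of it. It was also no mark of the listed genes among the SL2 entries: sls-2.10, sls-2.12, sls-2.13, sls-2.19 and sls-2.3 carried it as well. In the 6 listed genes with a match the summits lay -44.5 to 23.5 bp from the middle of the word, with a median of -1.5 bp. Over the 3 lists 13 of 18 summits lay within 20 bp. Each gene enters once per list and the thresholded list pools the replicates, so the 18 are not independent. Genes without a match had thresholded summits as close to the place compared: -9.5 bp at sls-2.7, and on III -4.5 bp at sls-2.5, 11.5 bp at sls-2.16 and -18.5 bp at sls-2.18. Closeness was thus not particular to genes with the word. A match of letters is a description and does not mark a binding site.

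Identity upstream was counted base by base without gaps, whereas in the RNA it came from alignments that allow gaps. Over the 21 pairs of listed genes, it was 25.3 to 84.0% in the 75 bases upstream, with a median of 38.7%. In the RNA it was 71.6 to 96.4%, with a median of 77.3%. A shift in position lowers identity counted without gaps, so these medians are not a like comparison. Without gaps in either, mean agreement was 3.98 of 7 genes over 100 bases upstream and 6.15 of 7 over the first 20 leader bases. Grouped at an average identity of 50% or more, sls-2.1, sls-2.2 and sls-2.4 fell together with sls-2.3, sls-2.11 with sls-2.10, and sls-2.7 and sls-2.17 with 7 other entries, while sls-2.9 stood alone. The closest pair of listed genes, sls-2.1 and sls-2.2, at 84.0%, had thresholded signals of 482 and 169.

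**Figure D5:**
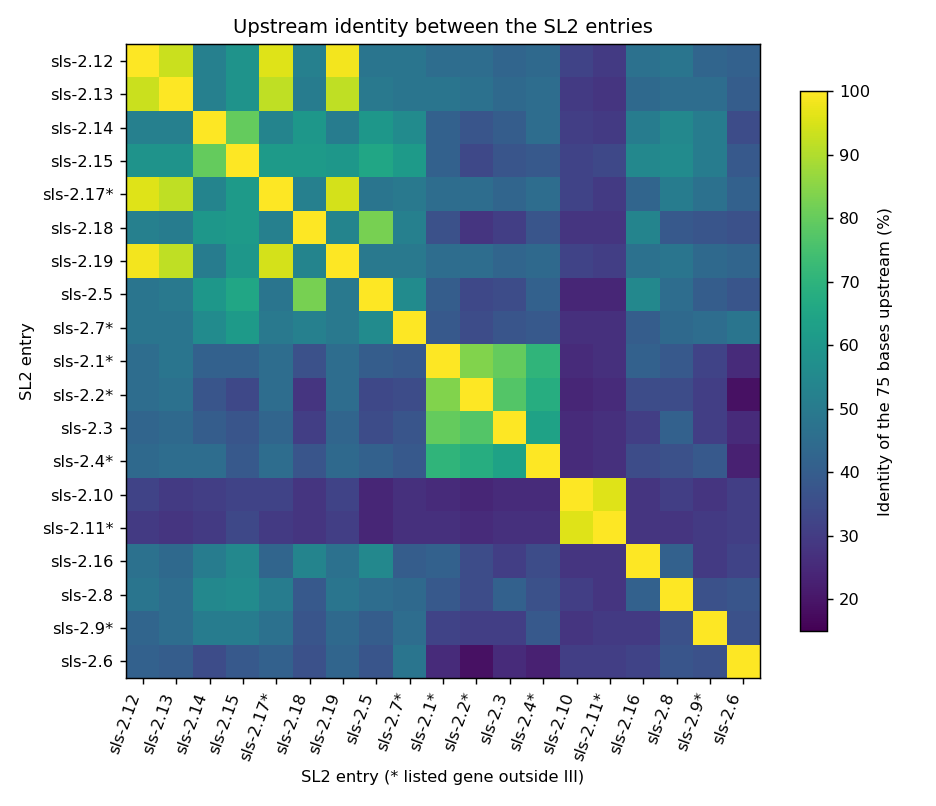
Identity (%) of the 75 bases upstream between the 19 SL2 entries, without gaps, ordered by group, with asterisks on the 7 listed genes. The block of sls-2.1, sls-2.2, sls-2.3 and sls-2.4, the pair sls-2.10 and sls-2.11, and the set of sls-2.12, sls-2.13, sls-2.17 and sls-2.19 stand out, and the listed genes are spread over the groups.

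For sls-2.11 and sls-2.17 the closest sequence upstream belonged to an SL2 entry on IV that was not listed, and for the unlisted sls-2.3 it was that of sls-2.1. These 3 entries are shown to compare with the sequences above, with the same meaning of the capitals. They are sls-2.10 (chrIV:9130830-9130899, minus strand), sls-2.12 (chrIV:5261843-5261912, plus strand) and sls-2.3 (chrII:5544274-5544343, minus strand).
sls-2.10: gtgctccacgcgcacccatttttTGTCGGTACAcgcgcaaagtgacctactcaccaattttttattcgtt
sls-2.12: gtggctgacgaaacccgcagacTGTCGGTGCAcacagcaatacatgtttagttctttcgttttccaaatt
sls-2.3: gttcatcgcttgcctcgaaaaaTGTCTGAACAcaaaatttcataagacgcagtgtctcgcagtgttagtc
Over 75 bases upstream sls-2.10 was 96.0% identical to sls-2.11 and held the same 10 capitals, and its signal was 11.2 and 46.2 in the replicates where sls-2.11 had 25.7 and 83.3. Likewise sls-2.12 was 96.0% identical to sls-2.17, with A8G in both, and had 10.8 and 17.2 where sls-2.17 had 33.5 and 72.8. Against sls-2.1, sls-2.3 was 80.0% identical, with G5T and T7A, and had 19.1 and 20.5 where sls-2.1 had 192 and 299. In each of these comparisons the listed gene was higher in both replicates. The listed genes were selected on these signals, so nothing is read from that direction.

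How many reads such copies can hold depends on how reads with several matches were treated, which is not given in the sources used here. In the stretch from 250 bp upstream to the 5′ end, all 31-base words were unique in the genome at sls-2.1, sls-2.2, sls-2.3, sls-2.4 and sls-2.7. The share was 88.2% at sls-2.11 and at sls-2.10, 83.6% at sls-2.17, 74.1% at sls-2.9 and 55.5% at sls-2.12. With the first 100 bases of the gene added, it was 79.1% at sls-2.1 and sls-2.3 and 82.2% at sls-2.2 and sls-2.9. It was then 92.8% at sls-2.4, 93.1% at sls-2.7, 77.2% at sls-2.11 and sls-2.10, 85.6% at sls-2.17 and 44.7% at sls-2.12. The shares were equal at sls-2.11 and sls-2.10, but these are close copies of each other and can repeat the same words. Nothing about their signals is read from that equality. Between sls-2.17 and sls-2.12 the share was lower at sls-2.12. The part of read mapping in these signals was not tested.

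The entry without any candidate region, sls-2.6, shared 96.0% of the nearest 25 bases upstream with sls-2.7, and 24.0% of the bases from there to 75 bp. It lies in an intron of hgo-1, which encodes homogentisate oxidase, on the same strand, and its leader is that of sls-2.7. At the place of the shared word it matched 4 of 10 letters and sls-2.7 matched 6.

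Proteins that act with these RNAs were read from a list of 10 genes for SL RNP and Sm proteins. Of these, 6 had a thresholded summit within 500 bp of the 5′ end, where 7.04% of 19985 protein-coding genes had one, and all 6 encode Sm proteins, which form the ring bound to SL and spliceosomal RNAs. They were snr-4 (120 in replicate 1, 180 in replicate 2 and 287 in the thresholded list), snr-1 (18.1, 57.5 and 78.9), snr-6 (22.7, 41.7 and 69.7), snr-3 (9.32, 55.7 and 65.9), snr-2 (14.1, 48.9 and 60.9) and snr-7 (23.4, 27.2 and 52.8). Except for snr-4, these were below every listed SL2 gene in the thresholded list. At the 6 genes the thresholded summits lay at -391 to -182 bp, farther upstream than at the listed SL2 genes. In replicate 1 snr-1, snr-2 and snr-3 were below 21.8, the end of the 2101 highest regions, and in replicate 2 snr-7 was below 32.5. The Sm gene snr-5 had no thresholded summit, nor did sna-1 and sna-2, which encode proteins bound to SL RNAs. The list also names sut-2, a zinc finger protein gene known from tau toxicity screens, which had no thresholded summit either.

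Among 491 bound small RNA genes outside the SL RNAs, the 3 whose log2 signals in both replicates were nearest to the median listed gene (60.6 and 109) were mir-1831, sup-39 and ZK265.10. The first 2 are annotated with the snRNA biotype on II and share 1 region, with 61.1 and 109 in the replicates and 168 in the thresholded list, and sup-39 is known from suppressor mutations in a U1 snRNA. ZK265.10, a snoRNA gene, had 59.9 and 108, and 167. Their summits lay at -59, -52 and -89 bp. The likeness is in signal alone, over 2 replicates.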

How the data were processed

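Peak lists on ce11 (WBcel235) came from 1 group with 2 biological replicates. Per the deposited notes, the authors called 30000 candidate regions per replicate and for the pool against a control, and derived the thresholded list of 2101 regions by irreproducible discovery rate. How reads were aligned, filtered and called is not given in the sources used here. For the deposited signal and score no scale is stated. The deposited summit offset gave each summit. The pooled list contains both replicates, so they are not independent of it. Nothing in the labels says how separately the 2 replicates were grown.

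Genes came from Ensembl release 115 with RefSeq symbols matched by position. The region of highest signal within 250 bp of a 5′ end stood for a gene, and regions of the replicates were matched to others within 100 bp. Coordinates are 1-based. No test was made. Named genes were the 7 listed, the highest and lowest on III, genes within 500 bp of a summit, and the 3 most alike. The other SL2 entries outside III were named after their values were seen. The members and lists were chosen with earlier results of these data known. Scripts were tested on simulated data. Software was pandas 2.3.3, NumPy 2.4.6 and matplotlib 3.10.9 under Python 3.11.15, with SciPy 1.17.1. Lists on ce10 were not used here.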

Additional observations from a re-analysis of the deposited data

How the results depend on the processing

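Of 56 alternatives over 18 results, 34 gave the same count or the same value within a spread, 22 moved and 0 reversed. The spread was that between replicates, except for the log2 ratio, where it was that between the 7 genes. The count of 7 listed genes with a summit was also 7 with windows of 100 and 500 bp and with the 1000 highest regions. It was 7 as well with overlap of the gene body and with each replicate alone. The same lists chose these genes, and a window of 500 bp could not lower the count. Nothing is read from it, although its alternatives are among the 34. Left out 1 at a time, the replicates gave a median signal of 60.6 to 109 against 169, and a median summit of -52 to -34 bp against -47 bp. Less the median of matched nuclear regions, the log2 ratio of the replicates was 0.11 in place of 0.85. Separate lists have separate scales. Taking the region nearest to the 5′ end changed no signal or position. No paired analysis was possible because there is 1 group. Depth is unknown, and 2 replicates limit every SD.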
